A study of Carica papaya with 55 samples.

Results

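The 18 pairs CpXY33 to CpXY50 are the sex-linked features of papaya (Carica papaya) with the highest pair numbers for which the deposited tables hold a copy on the X and a copy on the Y. They were chosen by name and chromosome alone: both copies of every pair named CpXY followed by a number of 33 or more, with names that begin with P left out. They make up 36 of the 193 features counted, of which 97 lay on the X and 96 on the Y, and 18 of the 68 pairs. The rule itself uses no measured value, but it was set with earlier results of these data known.

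Papaya sex follows an X and Y system. Females carry X chromosomes only, and males carry an X and a Y with a male-specific region (MSY, the suffix of the Y copies) that does not recombine with the X. A gene kept on both chromosomes has copies that diverge over time, and where they have diverged little a short read can match both.

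RNA from flowers of the variety 'AU9' had been sequenced in 55 libraries of 19 groups, and all groups shared that genotype. The male groups were whole buds (S0), pollen at S5, and, at each stage from S1 to S5, stamens and pistillodes (the pistil of a male flower, which aborts). The female groups were whole buds (S0), ovules at S5, and pistils from S1 to S5. Buds measured less than 1 mm at S0, between 1 and 1.5 mm at S1, between 2 and 4.5 mm at S2, between 4.5 and 6.5 mm at S3, between 7 and 12 mm at S4 and between 15 and 20 mm at S5. Each group had 3 libraries, apart from pistillodes at S2 and S3 with 2. The labels do not say that replicates came from separate plants, so p-values measure the spread between these libraries, which may be technical.

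The tables cover sex-linked features only, and their totals ran from 21475 to 106846 counts per library with a median of 64618. CpY19_MSY, a Y feature without an X partner, had 148 to 880 counts in each male library and 0 or 1 in each female library, so the sex labels fit it. The 36 copies together took 16.1 to 56.2% of the counts in male libraries and 36.6 to 38.7% in female libraries. A few Y features outside the pairs took large shares in some male libraries: CpY17_MSY held 29.9 to 35.2% of the counts in pollen and 2.12 to 12.4% in S5 stamens, and PCpY4_MSY held 28.2% in replicate 3 of the S5 pistillodes and 11.1% in replicate 3 of the S4 pistillodes. No pair of libraries within a group was identical. Levels are given as CPM, counts per 1000000 of a library's total after TMM scaling (edgeR's trimmed mean of log ratios). TMM trims the features with the largest differences, so a CPM is not a share of the counted total. It takes most features as unchanged, yet 82.7% of 139 features were called in pistillodes against pistils and 64.7% in male against female buds. Pollen against S5 stamens gave 71.9%, and stamens between S5 and S1 gave 65.5%. The zero point between the sexes, and in these 2 comparisons of male groups, therefore depends on the scaling. Results under other scalings are given below.

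Of the 18 pairs, 17 lay in the same order and on the same strand on both chromosomes. Their X copies, together with CpXY33_X_v2, ran from base 4896005 to base 5346534 of the X, and their Y copies from base 7623062 to base 8035411 of the Y (genome build not given in the sources used here). In these 17 pairs the Y copy started 2688877 to 2702293 bases further along its chromosome than the X copy. CpXY33_MSY stood apart, at Y:4543485-4545724 on the opposite strand from CpXY33_X_v2 at X:4896005-4896227, with 4 exons of 681 bases in all against 1 exon of 223 bases on the X. The number of exons and of exon bases was the same at both copies in 11 pairs and differed in 7. Exon length ran from 174 bases in CpXY48 to 3684 bases in CpXY47. Names of these features carry no function, and 0 of the feature names matched the reference table of 48816 papaya genes, so no role is given to any of them.

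Per the file headers a read that mapped to several places was counted at each of them, so a read that fits both copies of a pair was counted at both. Females carry no Y, so counts at a Y copy in females are not reads of a Y. Among pairs with at least 100 counts over all female libraries, the Y copy took over 25% of the female counts in 17 of 17 pairs from CpXY33 to CpXY50, in 5 of 12 pairs from CpXY17 to CpXY32 and in 1 of 14 pairs from CpXY1 to CpXY16. Among pairs with names that begin with P, 2 of 13 were over 25%, and the highest share was 86.0%. The median of the 17 pairs from CpXY33 to CpXY50 was 55.6%, and the range ran from 27.0% in CpXY34 to 83.0% in CpXY50. A read counted at both copies adds equally to them. Where the Y copy held more counts than the X copy in females, some reads were therefore counted at the Y copy alone. The source of those reads was not tested. A level at a single copy of these pairs is therefore a count at a named feature and not a level of that chromosome, and most of the results that follow are given for the sum of copies, in which a shared read counts at both.

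In 4 pairs both copies took almost the same counts in nearly every library. CpXY38 had 22914 counts at its Y copy and 23073 at its X copy over all 55 libraries, and the copies never differed by more than 12 counts in a library. CpXY35 had exactly equal counts at both copies in 25 of the 53 libraries that held any. CpXY36, with 198785 counts at the Y copy and 200952 at the X copy, had a median difference of 0.217% of the pair's counts. CpXY39 had 32 counts at the Y copy and 33 at the X copy. These 4 pairs had the same number of exons and exon bases at both copies. So did CpXY37 and CpXY41, in which the copies were far from equal: 55010 counts at the Y copy and 23684 at the X copy in CpXY37, and 69326 and 34028 in CpXY41.

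**Figure D1:**
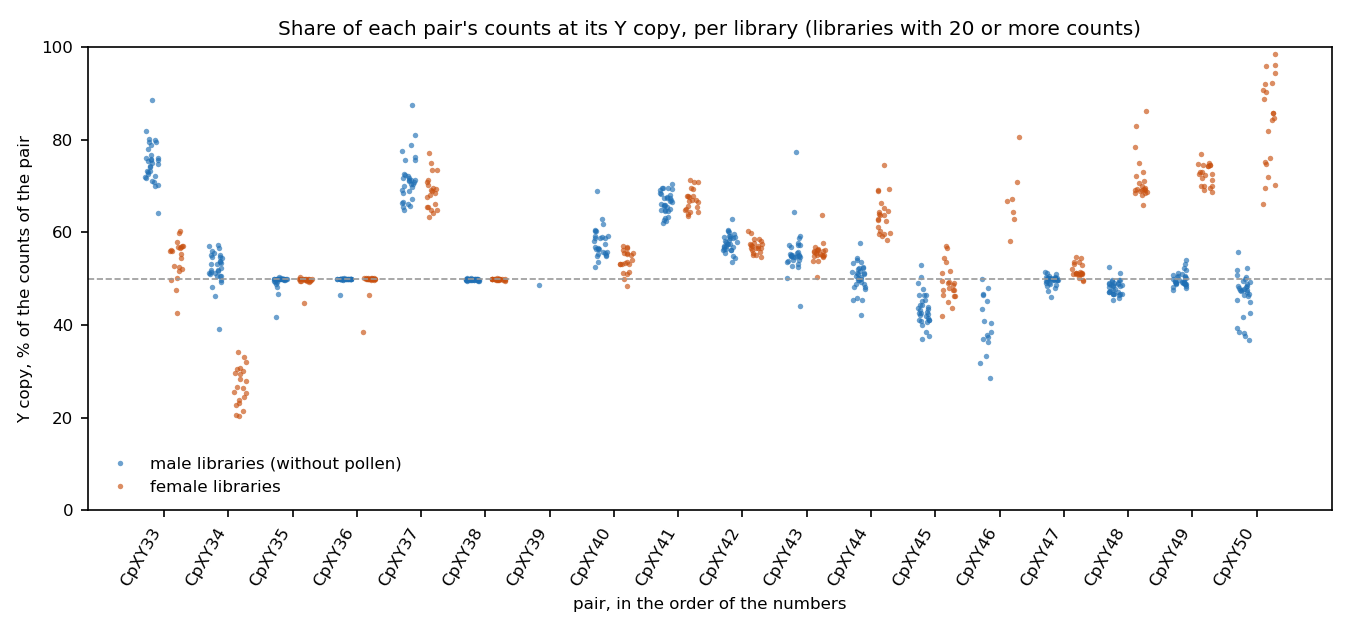
Each point is the percentage of a pair's counts that fell at its Y copy in 1 library with at least 20 counts for the pair, with males without pollen to the left of females, and the dashed line marks 50%. Male points lie above female points in CpXY33 and CpXY34, below them in CpXY44, CpXY46, CpXY48, CpXY49 and CpXY50, and overlap them in the other pairs; CpXY38 lies at the dashed line throughout, and CpXY35 and CpXY36 do so in most libraries, with single points down to 41.8% and 38.5%.

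The share of a pair's counts at the Y copy separated the sexes in 7 of 17 pairs. Over all pairs with at least 3 such libraries of each sex, male libraries other than pollen and female libraries did not overlap in 77.8% of 54 pairs, males being higher in 66.7% and lower in 11.1%. Among the 17, males were higher in 2 pairs and lower in 5, while 10 overlapped. Of the 6 pairs in the whole series in which males were lower, 5 lay between CpXY44 and CpXY50. These are counts over pairs with no test of the difference between parts of the map.

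CpXY50 had the widest difference between the medians of the sexes. Its Y share had a lowest value of 36.7%, a median of 47.5% and a highest value of 55.7% in 31 male libraries, against 66.2%, 85.8% and 98.4% in 21 female libraries. The copy named for the Y thus held most of the counts in every female, and male libraries lay on both sides of 50%. CpXY49 lay between 47.5 and 54.0% in males, median 49.5%, against 68.7 to 77.0% in females, median 72.6%. CpXY48 lay between 45.4 and 52.6% in males, median 48.4%, against 66.0 to 86.3% in females, median 69.4%. The same order held in CpXY44, with 42.2 to 57.7% in males (median 50.7%) and 58.3 to 74.5% in females (median 63.7%). In CpXY46, a pair with few reads, 16 male libraries reached 20 counts and lay between 28.6 and 50%, against 58.1 to 80.6% in 7 female libraries.

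CpXY33 and CpXY34 went the other way. The Y share of CpXY33 was 64.1% at the lowest, 75.0% at the median and 88.5% at the highest in males, against 42.5%, 55.9% and 60.3% in females. That of CpXY34 was 39.1%, 52.4% and 57.4% in males, against 20.4%, 26.5% and 34.2% in females. In CpXY34 the male copies were thus near balance and the X copy led in every female.

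The ratio of Y to X counts was then tested with limma as log2 values, 0.5 being added to each count, with adjustment over all pairs that had a mean of at least 20 counts. In male against female buds 8 of 17 pairs passed (78.8% of all 52 pairs tested), 3 with a higher ratio in males (67.3% of all) and 5 with a lower one (11.5%). The median difference was -0.07 over the 17 pairs and 1.87 over all 52. CpXY50 differed most, at -3.12 ± 0.77 (SE, limma adjusted p = 0.0003), with a Y share of 41.6, 37.6 and 36.7% in the male buds against 92.2, 70.3 and 85.8% in the female buds. CpXY46 differed by -2.31 ± 0.43, CpXY49 by -1.41 ± 0.14, CpXY48 by -1.38 ± 0.23 and CpXY44 by -0.51 ± 0.17. CpXY34 differed by 1.59 ± 0.25, CpXY33 by 1.38 ± 0.23 and CpXY37 by 1.13 ± 0.24.

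CpXY37 differed between the sexes in buds and did not pass in organs. Its Y share was 87.6, 75.7 and 77.5% in male buds and 65.6, 63.2 and 68.9% in female buds. In pistillodes it was 71.4 ± 4.85% (SD, n = 13), against 69.3 ± 4.02% in pistils (n = 15), a log2 difference of 0.12 ± 0.11 that did not pass (limma adjusted p = 0.32). Whether the bud difference exceeded that of the organs was not tested, because buds were listed in another folder by the file headers.

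In pistillodes against pistils, as means over S1 to S5, 9 of 16 pairs passed (84% of all 50 pairs tested), 3 higher (70% of all) and 6 lower (14%). CpXY34 and CpXY33 were higher by 1.58 ± 0.12 and 1.52 ± 0.11, close to their differences in buds. CpXY40 was higher by 0.45 ± 0.11. CpXY50 differed by -3.0 ± 0.36, CpXY48 by -1.50 ± 0.11, CpXY49 by -1.42 ± 0.07 and CpXY44 by -0.82 ± 0.08. CpXY45 and CpXY47 passed with smaller differences of -0.40 ± 0.08 and -0.12 ± 0.03. The 7 pairs that did not pass, among them CpXY35, CpXY36 and CpXY38, had differences between -0.09 and 0.12.

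In stamens against pistillodes 0 of 17 pairs passed with limma (7.27% of all 55 pairs tested, 3.64% higher and 3.64% lower), and 2 of 17, CpXY33 and CpXY40, had an unadjusted p under 0.05. All 17 differences lay between -0.28 and 0.04 on the log2 scale, for CpXY33 and CpXY41 at the ends. In pollen against S5 stamens 3 of 16 passed (30.2% of all 53 pairs tested), with 18.9% of all lower and 11.3% higher, but no direction is read from these 3. CpXY33 had 0 counts in pollen, so its ratio there is set by the added 0.5 and was not measured. CpXY37 and CpXY49 had 24 and 42 counts over the 3 pollen libraries and entered the test through the stamens. With at least 20 counts on average required in pollen as well, a setting added after the data were seen, 0 of the pairs passed.

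Because the shares moved, the copies of some pairs went in opposite directions between the sexes. In edgeR's quasi-likelihood test of single copies, pistillodes against pistils, CpXY50_X was higher by 1.82 ± 0.27 and CpXY50_MSY lower by 0.77 ± 0.12 on the log2 scale (adjusted p = 8.7e-08 and 1.0e-07). CpXY49_X was higher by 0.77 ± 0.10 and CpXY49_MSY lower by 0.64 ± 0.08. CpXY44_X was higher by 0.43 ± 0.09 and CpXY44_MSY lower by 0.37 ± 0.08. The sums of these 3 pairs differed by 0.06 ± 0.10, -0.10 ± 0.09 and -0.04 ± 0.07 and did not pass. In buds the copies of CpXY49 and CpXY50 went in opposite directions too. Over all comparisons of male organs with each other no pair from CpXY33 to CpXY50 had copies called in opposite directions. Opposite copies were counted in these pairs only, so no share over all pairs stands beside them.

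Per kilobase of exon, the mean summed level over all 55 libraries was 91286 CPM in CpXY36 and 66381 CPM in CpXY48. The mean of CpXY36 rests on stamens, with 268390 CPM per kilobase at S4 and 467143 at S5, and CpXY48 was above CpXY36 in 12 of the 19 group means, among them pollen with 44494 CPM per kilobase against 10159 in CpXY36. The next means over libraries were those of CpXY47 with 33454, CpXY41 with 25420 and CpXY50 with 25244 CPM per kilobase. CpXY48 and CpXY50 have 174 and 309 exon bases, so their values rest on short features. CpXY46 and CpXY39 were lowest, at 728 and 16.9 CPM per kilobase. CpXY39 had counts in 10 of the 55 libraries, was highest in S3 stamens with 498, 0 and 83 CPM, and had too few counts to be tested, which left 34 copies in 17 pairs.

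**Figure D2:**
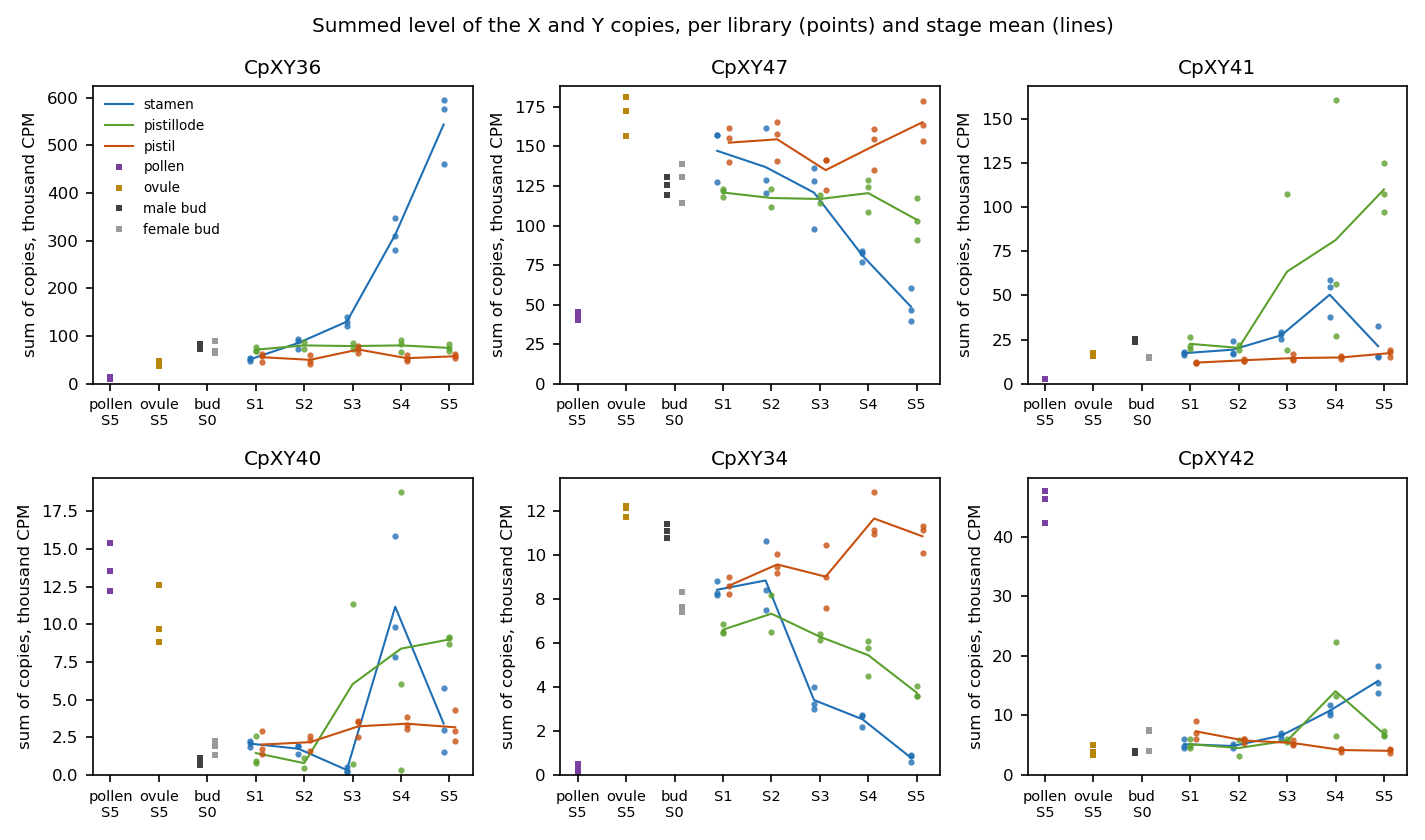
Points give the summed level of 6 pairs in each library, with stage on the horizontal axis, and lines join the stage means of stamens, pistillodes and pistils; pollen, ovules and buds stand at the left as squares. CpXY36 reached 543755 CPM in S5 stamens and stayed near its S1 level in pistillodes and pistils, CpXY41 was high in S5 pistillodes and scattered at S3 and S4, and CpXY42 was highest in pollen.

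CpXY36 was the pair that dominated late stamens. Its summed level was 50925, 52894 and 47985 CPM in S1 stamens. It averaged 85203 ± 10495 CPM at S2, 129873 ± 9635 at S3 and 312406 ± 33582 at S4 (SD, n = 3 each). In S5 stamens it was 595360, 460357 and 575548 CPM, and it took 30.9 to 40.7% of all counts in those libraries. In pistillodes the stage means stayed between 71049 and 80030 CPM, and in pistils between 49716 and 71397 CPM. Pollen held 9811, 12345 and 13320 CPM. In bulk samples such as these, fewer cells of a type and less RNA per cell cannot be told apart.

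CpXY47, the longest of the pairs, had the highest mean level without regard to length. It averaged 147262 ± 16994 CPM in S1 stamens, 120801 ± 20120 in S3 stamens and 48649 ± 10723 in S5 stamens. Pistillodes stayed between 103641 and 120881 CPM in their stage means and pistils between 135033 and 165356 CPM. Ovules had 172562, 181191 and 156653 CPM, and pollen had 39972, 45391 and 42235 CPM. Stamens from S1 to S5 thus covered a wider range than either form of the pistil.

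CpXY41 was high in pistillodes of later stages, with unlike replicates. At S1 the pistillodes had 19466, 26513 and 21581 CPM and at S2 they had 21662 and 18814 CPM. At S3 the replicates had 107866 and 19288 CPM, and at S4 they had 26747, 161054 and 56583 CPM. At S5 all were high, with 107784, 125203 and 97679 CPM. CpXY40, its neighbour on both chromosomes, split the same libraries: 11325 and 728 CPM in the S3 pistillodes, then 310, 18805 and 6035 CPM at S4 and 9175, 9110 and 8694 CPM at S5. CpXY42 had its highest pistillode values in the same S4 libraries, at 22392 and 13340 CPM in replicates 2 and 3 against 6472 CPM in replicate 1. Among the S3 and S4 pistillodes, PCpY4_MSY held 0.307 and 2.83% of the counts at S3 and 0.201, 0.0959 and 11.1% at S4, and its part in these values was not tested.

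CpXY37, CpXY43 and CpXY44 complete the 6 pairs with the highest mean level over libraries. CpXY37 averaged 35123 ± 2385 CPM in S1 pistils and 19637 ± 2031 CPM in S5 pistils, while its stamens peaked at S3 with 29705 ± 5712 CPM. CpXY43 lay between 11239 and 17347 CPM in the mean of every group except pollen, which had 53810, 60740 and 51900 CPM. CpXY44 varied least among the 6, between 8563 CPM in S5 stamens and 16668 CPM in pollen.

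**Figure D3:**
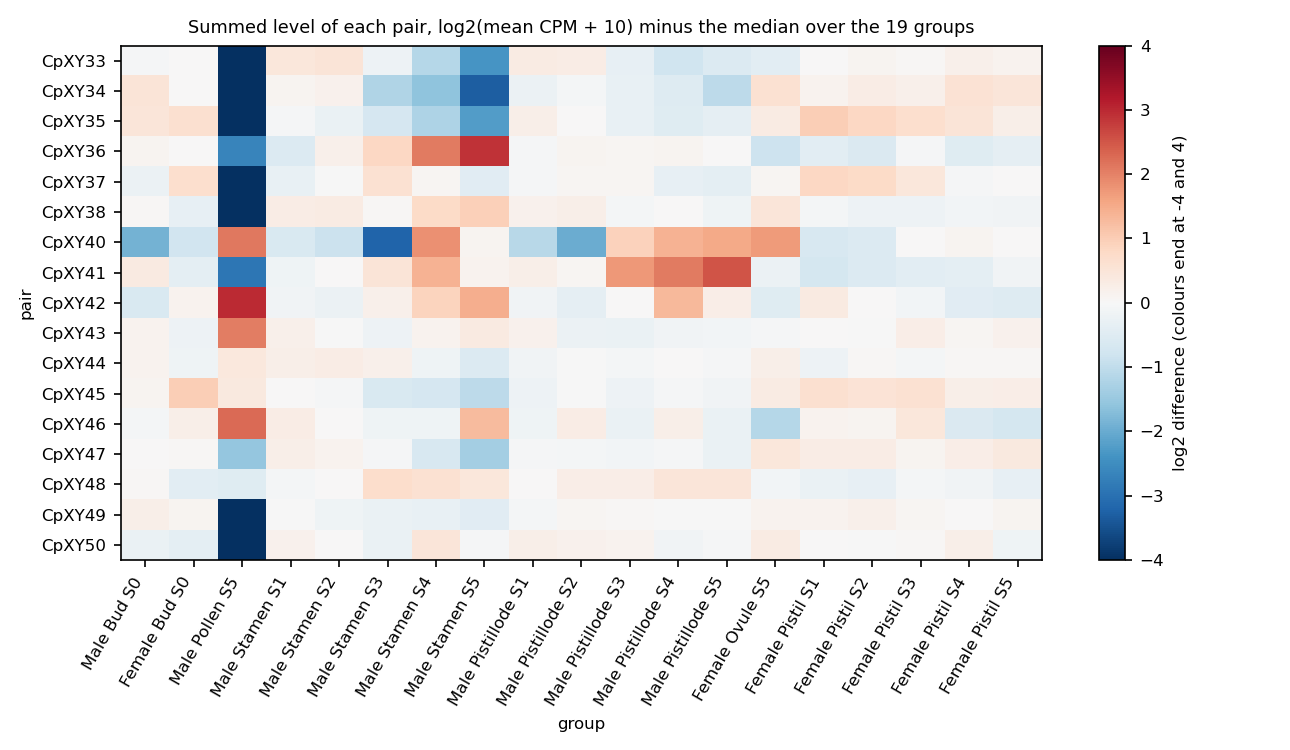
Colours give the log2 of the group mean of the summed level (CPM plus 10) minus the pair's median over the 19 groups, for the 17 pairs with enough counts, with groups from left to right and pairs from CpXY33 at the top to CpXY50 at the bottom. Pollen and late stamens hold the darkest cells, CpXY36 is highest in S5 stamens, CpXY41 in S5 pistillodes and CpXY42 in pollen, and the pistil columns stay pale.

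The comparison of S5 with S1 asked which pairs changed while an organ matured. In stamens 11 of 17 sums passed edgeR's test (63.9% of all 83 sums tested), 4 higher at S5 (27.7% of all) and 7 lower (36.1%). The median change was -0.16 over the 17 pairs and 0.07 over all 83. CpXY36 rose by 3.43 ± 0.16 on the log2 scale (SE, edgeR adjusted p = 1.4e-23). CpXY42 rose by 1.61 ± 0.24, with 13711, 15460 and 18231 CPM at S5 against 4939, 6031 and 4556 CPM at S1. CpXY38 and CpXY48 were higher by 0.66 ± 0.16 and 0.55 ± 0.15, but with library totals in place of TMM they changed by 0.03 and -0.10 and did not pass.

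The strongest falls in stamens were in the pairs with the lowest numbers. CpXY34 had 853, 898 and 609 CPM at S5 against 8803, 8272 and 8150 CPM at S1, a fall of 3.42 ± 0.18 on the log2 scale (edgeR adjusted p = 5.2e-21). CpXY33 had 670, 604 and 926 CPM at S5 against 4718, 5588 and 5636 CPM at S1, a fall of 2.85 ± 0.25. CpXY35 had 457, 434 and 688 CPM at S5 against 2875, 2338 and 2041 CPM at S1, a difference of -2.19 ± 0.28 on the log2 scale. No S5 value of the 3 reached any S1 value. CpXY47, CpXY45 and CpXY44 fell by 1.60 ± 0.13, 1.06 ± 0.16 and 0.77 ± 0.15. CpXY49 passed at -0.42 but lost its call with any of 5 of the 6 libraries left out. Under library totals 2 sums were higher and 10 lower, since the median over all sums then moved by -0.64.

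In pistillodes 5 of 17 sums passed between S5 and S1 (24.1% of all 83), 3 higher (13.3%) and 2 lower (10.8%). CpXY40 rose by 2.62 ± 0.72 on the log2 scale, with 9175, 9110 and 8694 CPM at S5 against 961, 2596 and 822 CPM at S1 (edgeR adjusted p = 0.0055). CpXY41 rose by 2.29 ± 0.39 (edgeR adjusted p = 1.9e-05), and by 2.20 to 2.45 with any 1 of the 6 libraries left out. CpXY48 was higher by 0.47 ± 0.15, with 15068, 14385 and 16071 CPM at S5 against 11313, 9720 and 11788 CPM at S1. It lost its call without replicate 2 of S1 or replicate 3 of S5, at 0.43 each. CpXY33 and CpXY34 fell by 0.88 ± 0.23 and 0.82 ± 0.17, with 3603, 4024 and 3590 CPM of CpXY34 at S5 against 6858, 6458 and 6473 CPM at S1. Under library totals 10 sums passed, 2 higher and 8 lower.

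In pistils 3 of 17 sums passed (18.1% of all 83), 0 higher (7.23%) and 3 lower (10.8%). CpXY37 fell by 0.84 ± 0.16 on the log2 scale, with 17312, 21064 and 20535 CPM at S5 against 33871, 33625 and 37874 CPM at S1 (edgeR adjusted p = 0.0002). CpXY42 fell by 0.85 ± 0.24, with 4320, 3645 and 4217 CPM at S5 against 8986, 7015 and 5973 CPM at S1. CpXY35 was lower by 0.77 ± 0.26 (edgeR adjusted p = 0.03) and lost its call with any 1 of the 6 libraries left out. Without replicate 1 of S1, or without replicate 2 of S5, CpXY42 lost its call too, at -0.68 and -0.78, and 1 of the sums passed.

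The change from S1 to S5 was itself compared between organs. In stamens against pistillodes it differed in 11 of 17 sums (48.2% of all 83), being higher in 4 (19.3%) and lower in 7 (28.9%). CpXY36 changed more in stamens by 3.35 ± 0.21 on the log2 scale (edgeR adjusted p = 1.6e-18), and CpXY42 and CpXY38 by 1.20 ± 0.33 and 0.99 ± 0.22. The differences of CpXY34, CpXY33 and CpXY35, which fell further in stamens, were -2.6 ± 0.24, -1.97 ± 0.34 and -1.6 ± 0.38. CpXY41, which rose in pistillodes and did not pass in stamens, differed by -2.0 ± 0.54. Under library totals the counts were 3 higher and 9 lower.

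In pistillodes against pistils the change from S1 to S5 differed in 4 of 17 sums (18.1% of all 83), 2 higher (7.23%) and 2 lower (10.8%). CpXY41 and CpXY42 were higher by 1.75 ± 0.54 and 1.27 ± 0.33 on the log2 scale. CpXY34 and CpXY33 were lower by 1.15 ± 0.23 and 1.02 ± 0.33 on the same scale (edgeR adjusted p = 0.0005 and 0.021). CpXY34 at S5 stood at 3739 ± 247 CPM in pistillodes, against 10833 ± 653 CPM in pistils. CpXY33 lost its call without replicate 1 of the S1 pistils, replicate 3 of the S5 pistils or replicate 2 of the S5 pistillodes, at -0.94, -0.81 and -0.82. Under library totals, and likewise with TMM on X features, 2 were higher and 4 lower.

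**Figure D4:**
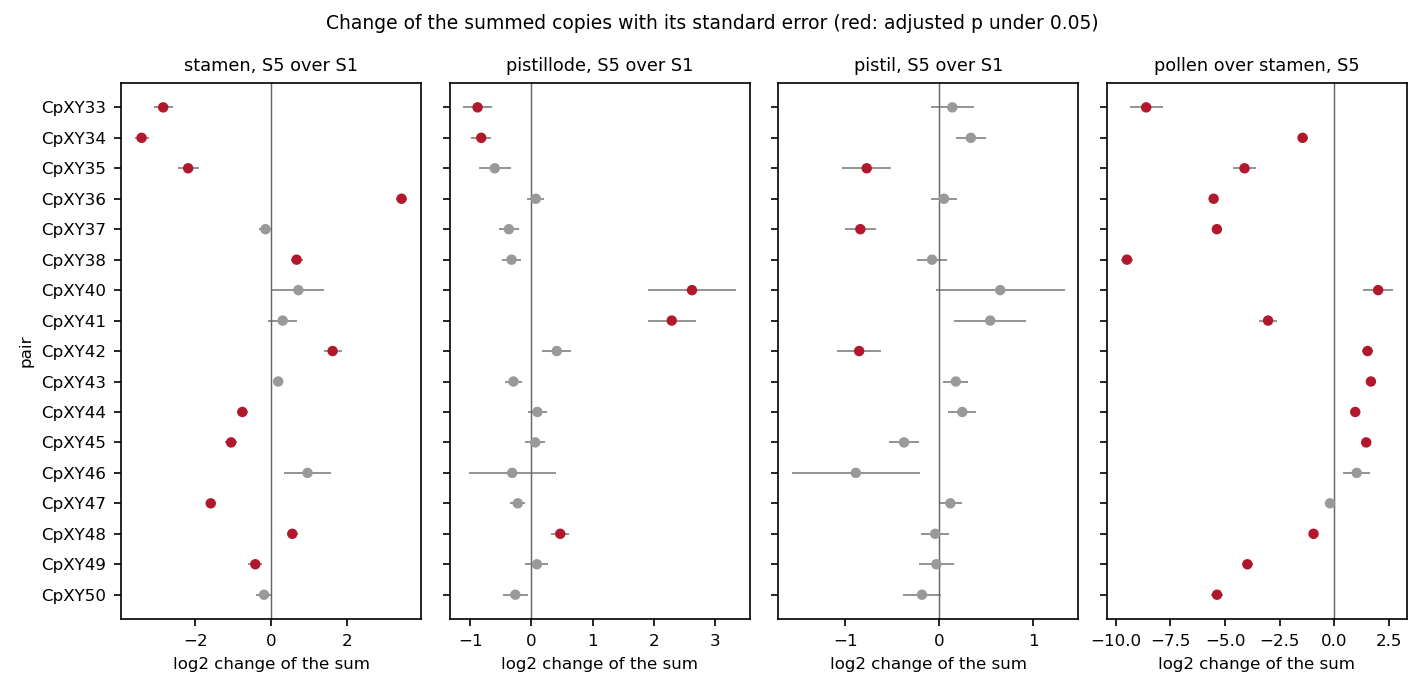
Points give the log2 change of the summed copies of 17 pairs with bars of 1 standard error, red where the adjusted p is under 0.05, for S5 over S1 in stamens, pistillodes and pistils and for pollen over S5 stamens. Stamens and pollen show the widest changes, with CpXY36 at 3.43 in stamens and at -5.52 in pollen, and CpXY40 and CpXY41 stand out in pistillodes. The lowest pollen points, CpXY38 at -9.49 and CpXY33 at -8.61, rest on 2 and 0 counts in pollen, so the size of the CpXY33 change was not measured.

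Pistillodes were compared with pistils over S1 to S5 to set the aborted organ of males against its female counterpart. Of 17 sums, 12 passed (72.3% of all 83), 5 higher (43.4%) and 7 lower (28.9%), with a median of -0.04 over the 17 and 0.18 over all. CpXY41 was higher by 1.76 ± 0.18 on the log2 scale (edgeR adjusted p = 4.0e-11), and by 1.46 to 1.96 with any 1 of the 28 libraries left out. Its 13 pistillode libraries ran from 18814 to 161054 CPM and its 15 pistil libraries from 11620 to 18867 CPM, so the ranges overlapped only just. CpXY48 and CpXY36 were higher by 0.53 ± 0.07 and 0.43 ± 0.07, and CpXY42 and CpXY38 by 0.35 ± 0.11 and 0.18 ± 0.07. CpXY42 lost its call without replicate 2 of the S5 pistillodes, at 0.22, and CpXY38 without replicate 1 of S4 or replicate 2 of S5, at 0.02 and 0.05. In the group means CpXY42 was lower in pistillodes than in pistils at S1 and S2, and CpXY38 was lower at S5.

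CpXY35 and CpXY34 were lower in pistillodes by 0.82 ± 0.12 and 0.78 ± 0.08 on the log2 scale. CpXY35 averaged 2247 ± 582 CPM in pistillodes and 3977 ± 885 CPM in pistils, and CpXY34 averaged 5732 ± 1388 CPM in pistillodes and 9924 ± 1404 CPM in pistils. CpXY45, CpXY37, CpXY47, CpXY33 and CpXY43 were lower by 0.59 ± 0.08, 0.52 ± 0.08, 0.39 ± 0.06, 0.31 ± 0.11 and 0.22 ± 0.06. With TMM computed on X features alone these 5 pairs turned to 0.02, 0.08, 0.22, 0.29 and 0.38. That scaling moved the median over all sums by 0.60 and gave 12 sums higher and 1 lower. Relative to it, the 5 pairs still stood below the median of all sums. CpXY33 lost its call without replicate 1 of the S2 or of the S3 pistillodes, at -0.24 and -0.20, and CpXY43 without replicate 2 of the S3 pistillodes, at -0.16. These means over stages also cover stages that went the other way. CpXY33 averaged 4782 ± 527 CPM in S1 pistillodes and 3883 ± 442 CPM in S1 pistils. It was higher in pistillodes at S2 too, and CpXY43 was higher at S1. No single stage was tested.

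Stamens against pistillodes, over S1 to S5, gave 10 of 17 sums past the threshold (50.6% of all 83), 3 higher (18.1%) and 7 lower (32.5%). CpXY36 was higher by 1.03 ± 0.07 on the log2 scale (edgeR adjusted p = 2.4e-17), and CpXY38 and CpXY43 by 0.45 ± 0.07 and 0.21 ± 0.06. CpXY41 was lower by 0.95 ± 0.18, and by 0.53 to 1.04 with any 1 of the 28 libraries left out. CpXY34 and CpXY35 were each lower by 0.72, with standard errors of 0.08 and 0.12, and CpXY45 by 0.35 ± 0.08. These means over stages cover stages that went the other way in the group means. CpXY34 averaged 8408 ± 347 CPM in S1 stamens and 6596 ± 227 CPM in S1 pistillodes, and it was higher in stamens at S2 as well. CpXY36 averaged 50601 ± 2470 CPM in S1 stamens and 71049 ± 4994 CPM in S1 pistillodes. CpXY45 averaged 6978 ± 612 CPM in S1 stamens and 6017 ± 166 CPM in S1 pistillodes. Single stages were not tested. The calls of CpXY33, CpXY49 and CpXY47, at -0.33, -0.25 and -0.22, were lost in 15, 19 and 5 of the 28 fits that left out a library. In the group means CpXY33 and CpXY47 were higher in stamens than in pistillodes at S1, S2 and S3, and CpXY49 was higher at S1. With TMM on X features 5 were higher and 5 lower, and with TMM taken before the count filter 6 were higher and 4 lower.

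In male against female buds under 1 mm, 6 of 17 sums passed (39.8% of all 83), 3 higher (27.7%) and 3 lower (12%). CpXY45 had 7410, 7760 and 7206 CPM in male buds, against 14230, 12624 and 14473 CPM in female buds, a difference of -0.88 ± 0.16 on the log2 scale (edgeR adjusted p = 1.8e-05). CpXY37 had 14746, 18798 and 16917 CPM in male buds, against 31169, 28493 and 33424 CPM in female buds, also -0.88 ± 0.16. CpXY42 was lower by 0.74 ± 0.24, with 3711, 3740 and 3954 CPM in male buds against 7409, 4019 and 7570 CPM in female buds. CpXY34 had 10750, 11391 and 11056 CPM in male buds against 7409, 8322 and 7644 CPM in female buds, a difference of 0.51 ± 0.16. CpXY48 and CpXY43 were higher by 0.49 ± 0.15 and 0.33 ± 0.13. The libraries of the sexes did not overlap in any of these 6 pairs.

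The bud calls were sensitive to single libraries and to scaling. Without replicate 1 or without replicate 3 of the male buds 3 sums passed. CpXY34 lost its call without any 1 of the 3 male libraries, at 0.39 to 0.45, and CpXY43 in 5 of 6 such fits, all but the one without replicate 2 of the female buds. CpXY48 lost its call without replicate 1 or 3 of the male buds, at 0.41 and 0.40, and CpXY42 without replicate 1 or 3 of the female buds, at -0.61 and -0.59. With TMM on X features 10 sums passed, all of them higher, and the median over all sums moved by 0.61. CpXY45, CpXY37 and CpXY42 stayed negative under that scaling and did not pass, and TMM taken before the count filter gave 5 higher and 3 lower.

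Ovules and S5 pistils, both female and from flowers of the same size, differed in 2 of 17 sums (9.64% of all 83), 1 higher (4.82%) and 1 lower (4.82%). CpXY38 had 16531, 17900 and 13941 CPM in ovules against 10500, 10552 and 10061 CPM in pistils, a difference of 0.64 ± 0.16 on the log2 scale (edgeR adjusted p = 0.0057). CpXY36 had 46645, 43712 and 35853 CPM in ovules against 56886, 61485 and 53487 CPM in pistils, a difference of -0.45 ± 0.14 (edgeR adjusted p = 0.031). CpXY36 lost its call without replicate 1 or 2 of the pistils, or replicate 2 or 3 of the ovules, at -0.34 to -0.42, and with TMM taken before the count filter 2 sums were higher and 0 lower. CpXY40 was 8818, 9692 and 12614 CPM in ovules and 2891, 4312 and 2288 CPM in pistils, but with an adjusted p of 0.11 for 1.71 ± 0.69 it did not pass.

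Pollen against S5 stamens gave the largest differences, with 15 of 17 sums past the threshold (66.3% of all 83), 5 higher (24.1%) and 10 lower (42.2%). The median was -1.45 over the 17 pairs and -0.41 over all. With median of ratios scaling, and likewise with library totals, 6 sums were higher and 10 lower. The median over all sums then moved by 0.41 and by 0.26. Pollen totals were small, at 27741 to 28555 counts, and the share of CpY17_MSY, given above, was higher in pollen. Its part in these differences was not tested. Both groups came from S5, and the labels do not say whether the stamens still held pollen. The part of any such pollen in the differences was not tested either. Intervals on the ratios that follow are exact 95% counting intervals and cover counting error only, without the spread between libraries.

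Pairs near the middle of the run were higher in pollen. CpXY43 had 53810, 60740 and 51900 CPM in pollen against 17397, 17830 and 16815 CPM in S5 stamens, a difference of 1.68 ± 0.14 on the log2 scale (edgeR adjusted p = 4.6e-15). CpXY42 had 42371, 46376 and 47717 CPM in pollen against 13711, 15460 and 18231 CPM in stamens, a difference of 1.53 ± 0.24. CpXY45 and CpXY44 were higher by 1.46 ± 0.17 and 0.96 ± 0.15. CpXY40 was higher by 2.01 ± 0.70, with 13538, 12204 and 15391 CPM in pollen against 2971, 5747 and 1521 CPM in stamens, and it lost its call without replicate 3 of the stamens, at 1.65. The libraries of both groups did not overlap in any of these 5 pairs. CpXY40, CpXY42, CpXY43, CpXY44 and CpXY45 lie within 6 consecutive pair numbers, of which the sixth, CpXY41, was lower in pollen.

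The other pairs that passed were lower in pollen. CpXY33 had 0 counts in the 3 pollen libraries, against 153 in the 3 stamen libraries, which makes it at least 17.2-fold lower when 3 counts over the group are allowed for. CpXY38 had 2 counts in pollen and 4523 in stamens, a ratio of 0.0013 (interval 0.00016 to 0.0047). CpXY35 had 2 counts in pollen and 110 in stamens, a ratio of 0.0540 (interval 0.0065 to 0.200). CpXY50, with 13 counts against 1646, and CpXY37, with 24 against 3046, both stood at a ratio of 0.023. CpXY36 fell by 5.52 ± 0.17 on the log2 scale, with 820 counts in pollen against 112303 in stamens. CpXY49, CpXY41, CpXY34 and CpXY48 fell by 3.97, 3.03, 1.45 and 0.95. CpXY47 and CpXY46, at -0.19 ± 0.13 and 1.03 ± 0.62, did not pass.

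Single copies were tested in the same way, and the 34 copies tested count each pair at both of its features, so these are not counts of genes. In male against female buds 16 copies passed edgeR's test (64.7% of all 139 features tested), 7 higher (37.4%) and 9 lower (27.3%). In pistillodes against pistils 28 passed (82.7%), 13 higher (46%) and 15 lower (36.7%). With TMM on X features pistillodes against pistils gave 24 copies higher and 3 lower, and buds gave 19 higher and 1 lower. The direction of copies between the sexes thus depends on the scaling. In stamens against pistillodes 20 passed (51.1%), 6 higher (16.5%) and 14 lower (34.5%). Pollen against S5 stamens gave 30 (71.9%), 10 higher (25.2%) and 20 lower (46.8%), and both copies went the same way in all 15 pairs called. Ovules against S5 pistils gave 3 (8.63%), 2 higher (5.04%) and 1 lower (3.6%).

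Between S5 and S1 stamens gave 21 copies past the threshold (65.5%), 8 higher (27.3%) and 13 lower (38.1%). Pistillodes gave 9 (18.7%), 5 higher (10.1%) and 4 lower (8.63%). Pistils gave 7 (13.7%), 0 higher (4.32%) and 7 lower (9.35%). The change from S1 to S5 differed in 21 copies in stamens against pistillodes (47.5%), 7 higher (16.5%) and 14 lower (30.9%). It differed in 8 copies in pistillodes against pistils (17.3%), 5 higher (7.19%) and 3 lower (10.1%). In pistillodes against pistils over all stages, both copies were higher in 4 pairs, both lower in 5 and opposite in 3, and 1 copy alone was called in 4. These counts were made in the pairs from CpXY33 to CpXY50 only, without a share over all pairs, so nothing particular to them is read from the counts.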

How the data were processed

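The deposited files hold whole-number counts per feature, which the authors made with featureCounts, per the file headers: read pairs were counted without strand, and a read that mapped to several places was counted at each. The submitters' processing notes name HISAT2 2.0.5 and featureCounts 1.5.2 (2.0.0 in the file headers), with Trimmomatic 0.36, SAMtools 1.3.1 and FastQC 0.11.5.

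Counts of the 193 sex-linked features were read for 55 libraries, and the copies of each pair were added to give 1 sum per pair. Features too low by edgeR's filterByExpr were removed, TMM factors were computed on the rest, and edgeR's quasi-likelihood test was fitted with 1 coefficient for each of the 19 groups. This was done for 139 copies and for 83 sums. Each standard error given with an edgeR change was derived as the absolute log2 change divided by the square root of its F statistic. For pairs with few counts it need not match the p-value. The ratio of Y to X counts was tested with limma on log2 values after adding 0.5. P-values were adjusted by Benjamini and Hochberg over all features or pairs tested, with a threshold of 0.05. Tools were R 4.3.3, edgeR 4.0.16, limma 3.58.1, DESeq2 1.42.0, SciPy 1.17.1, pandas 2.3.3 and matplotlib 3.10.9 under Python 3.11.15.

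For each comparison the text names up to 6 pairs in each direction whose sum passed, the largest changes first, given a mean of 10 or more counts per library where the pair was higher; other pairs were named after their values were seen. The members and lists were chosen with earlier results of these data known. In simulated counts of 139 features, 65 to 95% of 2-fold and 80 to 100% of 4-fold changes were recovered over 8 comparisons, with 0 to 9.52% false calls. The simulated features were drawn independently, with as many raised as lowered, whereas copies of a pair share reads here. These rates need not hold for the data. Alternatives were other scalings, no count filter, DESeq2, a fit of the compared groups alone, a replicate block, other count minimums and pseudocounts for the ratio, and each library left out. Same-numbered libraries deviated together (r over 0.1) in 7 of 44 pairs. With so few libraries per group this cannot exclude that the numbers pair them, and the main fits took the libraries as unpaired. Buds were listed in another folder by the file headers (6 libraries against 49) and were compared with each other only.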

Additional observations from a re-analysis of the deposited data

Results flagged for a closer look

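These pairs are listed because the change in summed level from S1 to S5 differed between organs by a test of the difference itself (edgeR's quasi-likelihood test, log2 scale, with 3 libraries in each of the 4 groups). In stamens against pistillodes the difference was 3.35 for CpXY36, 1.2 for CpXY42, 0.99 for CpXY38 and 0.47 for CpXY43, whose call was lost without replicate 1 or 2 of the S5 stamens, at 0.47 and 0.45. It was -2.6 for CpXY34, -2.0 for CpXY41, -1.97 for CpXY33 and -1.6 for CpXY35. It was -1.38 for CpXY47, -1.12 for CpXY45 and -0.86 for CpXY44. The call of CpXY44 was lost in 2 of the 12 fits that left out a library, which gave -1.0 to -0.47. In pistillodes against pistils the difference was 1.75 for CpXY41 and 1.27 for CpXY42, against -1.15 for CpXY34 and -1.02 for CpXY33. Both sets use the S1 and S5 pistillodes, so they are not independent.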

How the results depend on the processing

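Of 180 recounts of calls under alternatives other than a library left out, 169 lay within 1.5 times the count reported. This measure compares totals only and is blind to direction. It takes in the 13 sums of pistillodes against pistils under TMM on X features, 12 higher and 1 lower. The main fit gave 12 there, 5 higher and 7 lower. With only the groups compared in the fit, the sums called were 10 in buds, 5 in pistils and 10 in pistillodes between S5 and S1, and 7 for the change in pistillodes against pistils, and the copies called were 7 in ovules. With table totals as scaling, pistillodes between S5 and S1 gave 10 sums and 17 copies, and the change in pistillodes against pistils gave 13 copies. Without the count filter pistils gave 4 copies. TMM on X features gave 10 sums in buds. The ratio in pollen gave 0 pairs with the count minimum in each group, which, like TMM before the count filter, was chosen after seeing the data. Under TMM on X features the difference of pistillodes and pistils reversed to 0.29 in CpXY33, 0.083 in CpXY37, 0.38 in CpXY43, 0.015 in CpXY45 and 0.22 in CpXY47, and under table totals CpXY48 in stamens reversed to -0.10. The cause was not tested. With 1 library left out, copies in pistils between S5 and S1 ran from 2 to 6 (2 without pistil S1 replicate 1, S5 replicate 1 or S5 replicate 2), and copies for the change in pistillodes against pistils from 5 to 11 (5 without pistil S5 replicate 3). Sums ran from 3 to 6 in buds, from 1 to 2 in ovules and from 1 to 2 in pistils. Ratio calls in stamens against pistillodes ran from 0 to 1 (1 without pistillode S2 replicate 1 or 2, pistillode S4 replicate 3 or stamen S5 replicate 1). Of 99 results named for single pairs, 68 passed the threshold under every alternative run, 21 lost it with a library left out and 21 under another setting. The replicate block, although a pairing by number is not established, left 12 sums in pistillodes against pistils and changed no sum or ratio count. It gave 8 copies in pistillodes and 20 in stamens between S5 and S1, and 6 for the change in pistillodes against pistils. Depth limits pollen most, where CpXY33, CpXY35 and CpXY38 had 0 to 2 counts.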

Other observations

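CpXY36, whose copies took nearly equal counts elsewhere, had a Y share of 38.5 and 46.4% in replicates 2 and 3 of the S2 pistils and 46.5% in replicate 1 of the male buds. CpXY43 had a Y share of 77.3% in replicate 1 of the S2 pistillodes, with 450 Y counts and 132 X counts, and 44.1% in replicate 1 of the S4 pistillodes. These libraries were picked out after their values were seen.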
